A study of Mus musculus with 10 samples.

Results

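The p53 target genes of death signalling and DNA repair were examined in bone marrow cells of Dhx9-targeted mice. They comprised Fas, Tnfrsf10b, Aen, Perp, Sesn1, Btg2, Ddb2, Xpc, Rrm2b and Polk, chosen by name, and all 10 were found among the 55359 genes of the expression table. RNA-seq was performed on lineage-negative (Lin-) cells, bone marrow depleted of cells that carry surface markers of mature blood lineages. The groups were 5 libraries of Dhx9f/f mice (WT), whose floxed Dhx9 alleles stay intact without Cre, and 5 of Dhx9f/f;MX1 mice (cKO), which carry the same floxed alleles and an MX1-Cre transgene. The labels give the genotype of the latter as a Dhx9 knock down. Mx1 is an interferon-responsive promoter, so its Cre acts in many cell types once poly(I:C), an RNA mimic, has raised interferon. In the paper, MX1-Cre mice were given repeated poly(I:C) injections and, unless stated otherwise, examined a set time after the first dose. The sources used here leave unsaid whether the sequenced WT mice received poly(I:C). The ages of these mice are not given in the sources used here.

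The transcription factor p53 is stabilised by DNA damage and other stresses and binds paired copies of a short motif near its targets. Fas and Tnfrsf10b encode cell surface death receptors, Aen a nuclease and Perp a membrane protein linked to apoptosis. Sesn1 and Btg2 restrain growth, Ddb2 and Xpc recognise damaged DNA for nucleotide excision repair, Rrm2b supplies deoxynucleotides outside S phase, and Polk encodes a polymerase that copies past lesions. The human DDB2 gene is bound and activated by p53, and its mouse counterpart is known not to respond in the same way.

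The full p53 site, a pair of 10-base p53 motifs with no gap, was searched on both strands within 2500 bases of each annotated gene start in GRCm39. With up to 1 mismatch outside the 4-base core of each motif, 0 of the 10 genes held one, against 0.72% of 18624 genes tested. With up to 3 mismatches, a limit chosen after seeing the data, 3 of the 10 held one, against 12.5% of all genes. The sites of the genes with a RefSeq promoter entry are shown because they place the motif relative to the start of the gene, with the cores in capitals.
Fas, chr19:34269764-34269783, intron, 1772 bases downstream of the gene start, 2 mismatches: gggCATGtacaaaCATGtca
Aen, chr7:78545685-78545704, exon of some transcript, 92 bases downstream, 3 mismatches: gggCTTGtccgggCAAGgag
Aen, chr7:78547150-78547169, exon of some transcript, 1557 bases downstream, 3 mismatches: ggcCAAGcatataCAAGctt
The third gene, Perp, held a site with 2 mismatches centred 1924 bases upstream of its start. A single 10-base motif with no mismatch was then searched in the RefSeq promoter windows, which run from 250 bases before to 50 bases after a start in GRCm38.p6. Of the 10 genes, 5 have such windows (Fas, Aen, Sesn1, Btg2 and Polk), and 3 of these 5 held the motif in at least 1 window, against 9.55% of 27025 genes. Each of the 3 has 2 windows. The motif of Aen forms the left part of its site nearest the start, and the other motifs are these.
Sesn1, window chr10:41887189-41887488 (GRCm38.p6), plus strand, first base 173 bases before the start: aagCTTGttt
Polk, window chr13:96519138-96519437 (GRCm38.p6), minus strand, first base 231 bases before the start: gaaCTAGcct
These matches describe letters only. A window without a match says nothing of p53 binding elsewhere.

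Dhx9 itself was examined to check the labels. Its values were 130.82, 148.8, 131.25, 156.49 and 131.98 FPKM in libraries labelled cKO 1 to 5 and at 65.43 to 72.42 FPKM in the libraries labelled WT (FPKM, fragments scaled to gene length and library depth). The targeted gene was therefore higher, not lower, where the label says cKO, and each direction below rests on labels that Dhx9 goes against. The table gives 1 value per gene, so the floxed exons could not be looked at apart. Depth, read from the steps of low values, was 13789970 to 17174772 fragments in the libraries labelled cKO and 15028397 to 18820403 in those labelled WT. Xist, expressed from the inactive X chromosome of females, stood at 99.19 to 127.76 FPKM in WT 3, 4 and 5, while no other library exceeded 0.09 FPKM, so the groups were not balanced for sex. Between labels, 862 of 18742 genes tested were called higher and 3153 lower, that is 21.5% of calls higher, and quantile normalization moved that share to 41.3% and the median log2 fold change over the tested genes from -0.11 to 0.10. Among marker genes of the lineages, 7 of 14 erythroid genes were called higher, and called lower were 12 of 12 monocyte and dendritic, 5 of 12 neutrophil, 6 of 9 B-lymphoid, 6 of 10 T and NK, 9 of 9 megakaryocyte, 5 of 8 progenitor, 6 of 8 stromal and endothelial (with 1 higher) and 4 of 4 epithelial genes. In bulk samples, fewer cells of a type and less RNA per cell cannot be told apart.

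In the libraries labelled cKO, 2 of the 10 genes rose (Perp and Tnfrsf10b) and 1 fell (Xpc). To be called, a gene had to reach adjusted p < 0.05 by limma and differ at least 2-fold, and over all genes tested 4.60% were called higher and 16.8% lower. On adjusted p alone, 4 of the 10 were higher (Perp, Tnfrsf10b, Aen and Polk) and 3 lower (Xpc, Sesn1 and Btg2), where 16.7% and 28.3% of all genes were. Fas, Ddb2 and Rrm2b did not pass. In 3 genes the groups did not overlap, with every library labelled cKO above every WT library for Perp and Polk (10.6% of all genes) and below for Xpc (21.6% of all genes, and 32.2% in either direction). The median log2 fold change of the 10 was 0.24, against -0.11 over all genes tested.

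**Figure D1:**
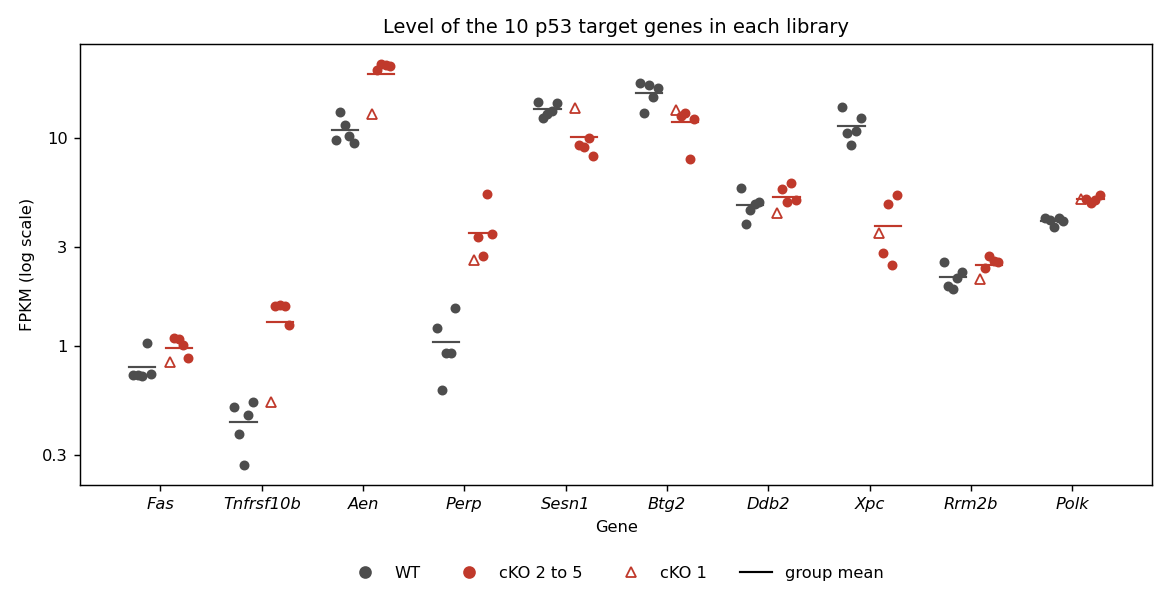
Level of each gene in FPKM (log axis) in each library, with WT in grey, libraries labelled cKO 2 to 5 in filled red, cKO 1 as an open triangle and the group mean as a line. Perp and Polk in the libraries labelled cKO lie above, and Xpc below, all WT libraries, and cKO 1 lies at or within the WT values for Tnfrsf10b (0.54), Aen (13.05), Sesn1 (13.94) and Btg2 (13.59).

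**Figure D2:**
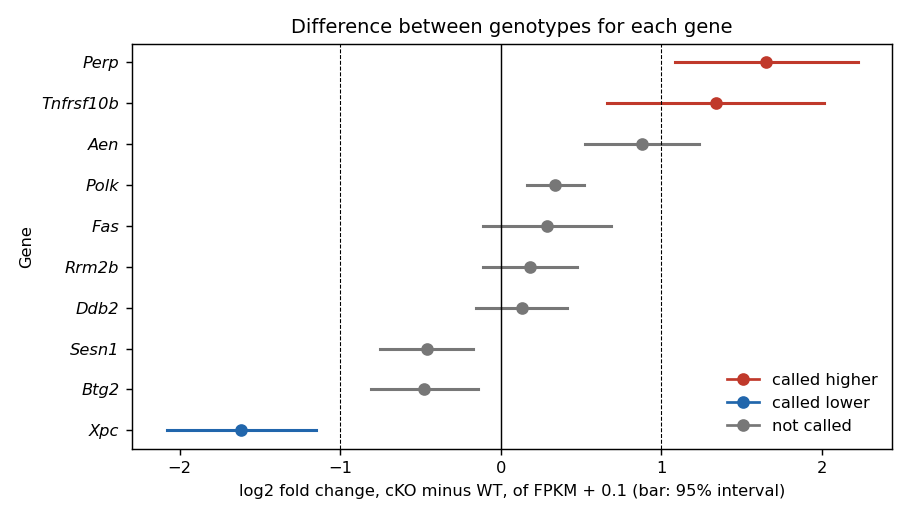
The log2 fold change of FPKM + 0.1, cKO minus WT, of each gene as a point with its 95% interval as a bar, and dashed lines at a 2-fold change. Perp (1.65) and Tnfrsf10b (1.34) were called higher and Xpc (-1.62) lower, and the intervals of Fas, Rrm2b and Ddb2 include 0.

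Of the death receptors, Tnfrsf10b, the mouse receptor for the ligand TRAIL, rose and Fas did not pass the test. Tnfrsf10b (chr14:70004916-70021860, plus strand, GRCm39) was at 0.54, 1.57, 1.58, 1.57 and 1.26 FPKM in libraries labelled cKO 1 to 5 and at 0.51, 0.38, 0.27, 0.47 and 0.54 FPKM in WT 1 to 5. Libraries cKO 2 to 5 lay above all WT libraries, and cKO 1 was level with the highest of them. The means were 1.30 ± 0.448 and 0.434 ± 0.110 FPKM (SD, n = 5 each). By limma with Benjamini-Hochberg adjustment the log2 fold change was 1.34, with a 95% interval of 0.66 to 2.02 and an adjusted p of 0.00466. The difference was 1.60 without library cKO 1. It was no longer called with a pseudocount of 1 (0.66) or among the libraries with Xist at or under 1 FPKM (1.29, adjusted p = 0.0715, limma), where 2 WT libraries remain. A library held about 24 to 154 fragments of this gene.

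Fas (chr19:34268001-34305173, plus strand, GRCm39) was at 0.84, 1.1, 1.09, 1.01 and 0.88 FPKM in libraries labelled cKO 1 to 5 and at 0.73, 0.73, 0.72, 1.04 and 0.74 FPKM in WT 1 to 5. Every library labelled cKO lay above 4 of the WT libraries, and WT 4 lay among them. The log2 fold change was 0.29 with a 95% interval of -0.11 to 0.69 (adjusted p = 0.225, limma), on about 26 to 45 fragments a library. With quantile normalization it was 0.78 (adjusted p = 0.00999, limma), still under the fold change limit.

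Around these receptors, 22 of 23 other genes of death receptor signalling were tested, and limma called 0 higher and 5 lower, where 4.60% and 16.8% of all genes were. On adjusted p alone 1 was higher and 12 lower, where 16.7% and 28.3% of all genes were. At an unadjusted p under 0.05, 2 were higher and 14 lower, where 3746 and 6051 of all 18742 genes tested were. The median log2 fold change was -0.68, against -0.11 over all genes tested. Tnfsf10, which encodes TRAIL, fell by 2.53 on the log2 scale (adjusted p = 2.75e-04, limma), from 3.41 ± 0.416 to 0.592 ± 0.432 FPKM (SD, n = 5 each). Tnfrsf1a, a receptor for tumour necrosis factor, fell by 2.84 on the log2 scale, from 31.3 ± 6.23 to 5.15 ± 3.23 FPKM (SD, n = 5 each). Casp8, the initiator caspase of these receptors, fell by 1.24 on the log2 scale, from 30.2 ± 1.6 to 12.9 ± 2.40 FPKM (SD, n = 5 each). Cflar, which holds Casp8 in check, fell by 1.09 on that scale, from 8.0 ± 1.19 to 3.70 ± 0.557 FPKM (SD, n = 5 each). Tnfrsf22, a decoy receptor for TRAIL in mice, was called lower as well (-1.12). The adaptor Fadd (-0.68, adjusted p = 0.0121, limma) passed on adjusted p alone, while the ligand Fasl (-0.71, adjusted p = 0.214, limma) and the decoy Tnfrsf23 (-0.75, adjusted p = 0.0933, limma) did not, both at means under 0.2 FPKM. Monocyte and dendritic markers moved with this list, at a summed level of 10.5 to 314.5 FPKM in the libraries labelled cKO and 1015 to 1761 in WT, and their part in it was not tested.

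Perp, a tetraspan membrane protein of desmosomes, had the largest rise of the 10 genes, and the nuclease gene Aen was higher by less than the limit. Perp (chr10:18720715-18732821, plus strand, GRCm39) was at 2.59, 3.34, 2.71, 5.39 and 3.48 FPKM in libraries labelled cKO 1 to 5 and at 1.23, 0.62, 0.93, 0.93 and 1.53 FPKM in WT 1 to 5. Library cKO 4 was the highest and the groups did not overlap. The means were 3.50 ± 1.12 and 1.05 ± 0.345 FPKM (SD, n = 5 each), and the log2 fold change by limma was 1.65, with a 95% interval of 1.08 to 2.22 and an adjusted p of 5.15e-04. A two-sided exact permutation test reached p = 0.00794, below which 5 libraries against 5 cannot go. Perp was called in each of 22 other settings, with log2 fold changes of 1.12 to 2.08. Perp is also expressed in epithelia, and epithelial markers had a summed level of 0.86 to 5.09 FPKM in the libraries labelled cKO and 11.2 to 24.1 in WT, with Krt5 and Krt14 at 0 in all 10 libraries. The part of epithelial cells in the level of Perp was not tested. A library held about 20 to 162 fragments of Perp.

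Aen (chr7:78545602-78560957, plus strand, GRCm39) was at 13.05, 21.22, 22.68, 22.49 and 22.28 FPKM in libraries labelled cKO 1 to 5 and at 9.81, 13.41, 11.53, 10.27 and 9.47 FPKM in WT 1 to 5. Libraries cKO 2 to 5 stood close together at more than any WT library, and cKO 1 lay just under WT 2. The mean was 20.3 ± 4.12 against 10.9 ± 1.61 FPKM (SD, n = 5 each), a ratio of 1.87, and the log2 fold change was 0.88 (95% interval 0.52 to 1.23, adjusted p = 0.00127, limma). Without library cKO 1 it was 1.03 (adjusted p = 8.06e-05, limma) and Aen was called. Of the nearest relatives of Aen, Isg20 (0.66, adjusted p = 0.0192, limma) passed on adjusted p alone. So did Isg20l2 (0.38) but not Rexo4 (-0.02), both named after their values were seen. Tmem47, the nearest relative of Perp, was listed at 0 in all libraries but cKO 1.

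The growth regulators Sesn1 and Btg2 were lower in the libraries labelled cKO by less than the fold change limit. Sesn1 (chr10:41685931-41784423, plus strand, GRCm39), a stress-induced inhibitor of mTORC1, was at 13.94, 9.25, 9.06, 10.04 and 8.19 FPKM in libraries labelled cKO 1 to 5 and at 14.95, 12.42, 13.01, 13.54 and 14.79 FPKM in WT 1 to 5. Library cKO 1 lay within the WT range and the other 4 below it. The log2 fold change was -0.46 (95% interval -0.75 to -0.17, adjusted p = 0.0145, limma) and -0.58 without library cKO 1 (adjusted p = 3.95e-04, limma). It did not pass with Xist as a covariate (-0.45, adjusted p = 0.0859, limma), among the libraries with Xist at or under 1 FPKM (adjusted p = 0.144, limma) or with median-ratio scaling (-0.36, adjusted p = 0.0501, limma).

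Of the other sestrins, Sesn2 rose and Sesn3 fell. Sesn2 rose from 5.09 ± 0.784 to 14.9 ± 6.58 FPKM (SD, n = 5 each; log2 fold change 1.36, adjusted p = 0.0120, limma), although library cKO 1 at 4.2 FPKM lay below all WT libraries. Sesn3 fell from 1.69 ± 0.453 to 0.390 ± 0.151 FPKM (SD, n = 5 each; -1.88). Castor1, an arginine sensor of the same pathway, rose by 2.64 on the log2 scale, from 0.502 ± 0.135 to 3.88 ± 1.5 FPKM (SD, n = 5 each). Its paralogue Castor2, named after its value was seen to complete the count, was called lower (-2.07). Of the 13 genes of sestrins and GATOR, which pass amino acid supply to mTORC1, 2 were called higher and 2 lower, with a median of -0.01. Over all genes tested 4.60% were called higher and 16.8% lower. The ratio of Sesn1 to Sesn2 was 2.07 to 3.48 in WT, 3.32 in library cKO 1 and 0.417 to 0.690 in libraries cKO 2 to 5.

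Btg2 (chr1:134002908-134015033, minus strand, GRCm39), an antiproliferative protein that recruits the CCR4-NOT deadenylase, was at 13.59, 12.75, 13.17, 7.96 and 12.37 FPKM in libraries labelled cKO 1 to 5 and at 18.36, 13.23, 17.92, 15.76 and 17.38 FPKM in WT 1 to 5. WT 2 lay among the libraries labelled cKO, and cKO 4 lay far below the rest. The log2 fold change was -0.48 (95% interval -0.81 to -0.15, adjusted p = 0.0237, limma). With Xist as a covariate, which leaves WT 1 and 2 as the WT side, it did not pass (-0.40, adjusted p = 0.167, limma). Nor did it pass with median-ratio scaling (-0.37, adjusted p = 0.0544, limma) or without any of WT libraries 1, 3 and 5 (adjusted p = 0.0564, 0.0513 and 0.0530, limma). Its paralogue Btg1 fell from 15.3 ± 3.08 to 6.71 ± 1.79 FPKM (SD, n = 5 each; log2 fold change -1.18, adjusted p = 5.77e-04, limma), and Btg3 rose from 1.08 ± 0.370 to 2.28 ± 0.419 FPKM (SD, n = 5 each; 1.06, adjusted p = 0.00693, limma). These were the only calls among 15 genes of the BTG/TOB family and CCR4-NOT, whose median was 0.02, where 21.4% of all genes were called.

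The genes of damage recognition parted, as Xpc fell and Ddb2 did not pass the test. Xpc (chr6:91466287-91492898, minus strand, GRCm39), whose product detects distorted DNA throughout the genome, was at 3.52, 2.81, 4.83, 2.47 and 5.32 FPKM in libraries labelled cKO 1 to 5 and at 14.17, 10.58, 9.25, 10.84 and 12.46 FPKM in WT 1 to 5. The highest library labelled cKO lay well below the lowest WT library. The WT mean of 11.5 ± 1.9 FPKM stood against 3.79 ± 1.24 FPKM (SD, n = 5 each), and the log2 fold change by limma was -1.62, with a 95% interval of -2.08 to -1.15 and an adjusted p of 2.07e-04. The exact permutation p was 0.00794. Xpc was called in each of 22 other settings, at -1.75 to -1.37.

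Ddb2 (chr2:91040809-91078878, minus strand, GRCm39), which binds ultraviolet lesions as part of a ubiquitin ligase and hands them to Xpc, was at 4.38, 5.72, 4.94, 6.07 and 5.07 FPKM in libraries labelled cKO 1 to 5 and at 5.79, 3.86, 4.52, 4.84 and 4.93 FPKM in WT 1 to 5. The groups overlapped over most of their range. The log2 fold change was 0.13 with a 95% interval of -0.15 to 0.41 (adjusted p = 0.445, limma). The ratio of Xpc to Ddb2 within a library, which a single scaling factor per library leaves as it is, was 2.05 to 2.74 in WT and 0.407 to 1.05 in the libraries labelled cKO. Its mean log2 differed by -1.78 (exact permutation p = 0.00794, adjusted p = 0.0159 over 6 pairs of genes chosen after their values were seen).

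Of 29 other genes of nucleotide excision repair, limma called 0 in either direction, where 21.4% of all genes were called. At an unadjusted p under 0.05, 14 were higher and 3 lower, where 3746 and 6051 of all 18742 genes tested were. On adjusted p alone 13 were higher and 2 lower, where 16.7% and 28.3% of all genes were. The 2 lower were Cetn2 and, named after its value was seen, Cul4b at -0.20. The median log2 fold change of the list was 0.24. The direct partners of Xpc were at 65.5 ± 9.87 against 51.4 ± 4.60 FPKM for Rad23b (SD, n = 5 each; log2 fold change 0.34, adjusted p = 0.0292, limma) and 20.1 ± 0.902 against 25.0 ± 0.890 FPKM for Cetn2 (SD, n = 5 each; -0.31, adjusted p = 9.94e-04, limma). Ddb1, the partner of Ddb2, was at 124.5 ± 12.1 against 104.5 ± 3.73 FPKM (SD, n = 5 each; 0.25, adjusted p = 0.0139, limma). Progenitor markers had a summed level of 33.9 to 66.7 FPKM in the libraries labelled cKO and 118 to 162 in WT, erythroid markers 5020 to 8343 against 1707 to 3043 FPKM, and neutrophil markers 148 to 2633 against 2748 to 3735 FPKM. The neutrophil markers were not uniform, with 5 of 12 called lower and 3 at positive log2 fold changes (Ltf 1.39, Camp 0.98 and Ngp 1.43), none of these called. Monocyte and dendritic markers summed to 84.75, 21.64, 187.77, 10.46 and 314.53 FPKM in libraries labelled cKO 1 to 5 and 1015 to 1761 in WT. Within the libraries labelled cKO, these sums and those of the progenitor markers had the order of Xpc. The neutrophil sums did not, and in WT the monocyte and dendritic sums had another order. These orders were looked at after the values were seen. The part of these marker lists in the fall of Xpc was not tested.

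Rrm2b (chr15:37924196-37961562, minus strand, GRCm39), the p53-induced small subunit of ribonucleotide reductase, was at 2.1, 2.38, 2.71, 2.56 and 2.55 FPKM in libraries labelled cKO 1 to 5 and at 2.55, 1.94, 1.88, 2.14 and 2.28 FPKM in WT 1 to 5. The groups overlapped, and the log2 fold change was 0.18 with a 95% interval of -0.11 to 0.48 (adjusted p = 0.287, limma). With quantile normalization it was 0.66 (adjusted p = 0.00135, limma). The S-phase subunits were at far higher levels, with Rrm1 at 72.2 ± 14.6 against 57.3 ± 6.57 FPKM and Rrm2 at 163 ± 11.0 against 124 ± 27.2 FPKM in WT (SD, n = 5 each). Of 14 other genes of deoxynucleotide supply, limma called 0, where 21.4% of all genes were called, and the median was 0.04. At an unadjusted p under 0.05, 4 were higher and 2 lower, where 3746 and 6051 of all 18742 genes tested were. On adjusted p alone 2 were higher and 2 lower, where 16.7% and 28.3% of all genes were.

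Polk, polymerase kappa, showed a small difference that every library shared. Polk (chr13:96617196-96679087, minus strand, GRCm39) was at 5.11, 5.11, 4.88, 5.03 and 5.34 FPKM in libraries labelled cKO 1 to 5 and at 4.13, 4.05, 3.74, 4.12 and 4.01 FPKM in WT 1 to 5. The groups did not overlap, and libraries of the same label lay close together. The means were 5.09 ± 0.167 and 4.01 ± 0.159 FPKM (SD, n = 5 each), a ratio of 1.27, and the log2 fold change was 0.34 (95% interval 0.16 to 0.52, adjusted p = 0.00583, limma). With Xist as a covariate, which leaves WT 1 and 2 as the WT side, the value was 0.31 (adjusted p = 0.0624, limma). Of 16 other genes of translesion synthesis, limma called 0, where 21.4% of all genes were called, and the median was 0.13. At an unadjusted p under 0.05, 5 were higher and 4 lower, where 3746 and 6051 of all 18742 genes tested were. On adjusted p alone 4 were higher and 4 lower, where 16.7% and 28.3% of all genes were. Rev1, the scaffold of these polymerases, was at 13.1 ± 1.79 against 8.56 ± 0.613 FPKM (SD, n = 5 each; 0.61, adjusted p = 7.83e-04, limma), Poli at 10.5 ± 2.30 against 8.75 ± 0.676 FPKM and Polh at 9.39 ± 1.23 against 10.7 ± 0.800 FPKM (SD, n = 5 each), the last pair without passing the test. The ratio of Polk to Polh was 0.326 to 0.418 in WT and 0.447 to 0.617 in the libraries labelled cKO (exact permutation p = 0.00794, adjusted p = 0.0159 over 6 pairs).

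**Figure D3:**
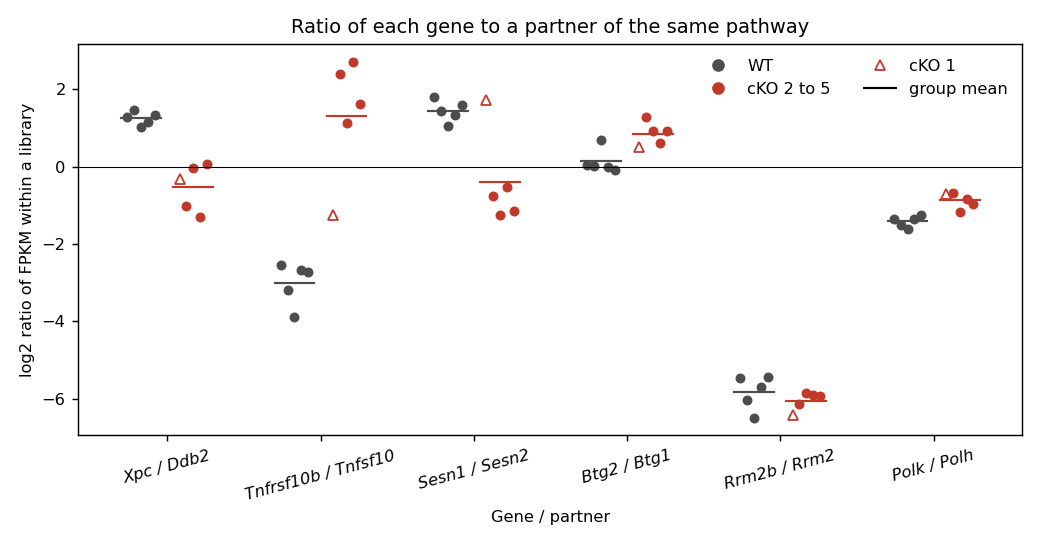
The log2 ratio of FPKM of a gene to a partner within each library, with WT in grey, libraries labelled cKO 2 to 5 in filled red, cKO 1 as an open triangle and group means as lines. The ratios of Xpc to Ddb2, Tnfrsf10b to Tnfsf10 and Polk to Polh do not overlap between the groups, and cKO 1 lies with WT for Sesn1 to Sesn2 (3.32).

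Ratios were taken for 3 further pairs in the same way. That of Tnfrsf10b to Tnfsf10, receptor to ligand, went from 0.0678 to 0.171 in WT to 0.419 in library cKO 1 and 2.19 to 6.54 in the others (exact permutation p = 0.00794, adjusted p = 0.0159 over 6 pairs). That of Btg2 to Btg1 was 0.945 to 1.61 in WT and 1.42 to 2.42 in the libraries labelled cKO (adjusted exact permutation p = 0.0357). The ratio of Sesn1 to Sesn2 had an adjusted exact permutation p of 0.0476, and that of Rrm2b to Rrm2 one of 0.357. Each of the 6 pairs holds a gene that had already passed on adjusted p alone, so the p-values of the ratios add no separate evidence. For Tnfrsf10b and Tnfsf10, called in opposite directions, the separation of the ratio followed from the values of each gene.

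The genes were ordered by mean level in each group. In WT, Btg2, Sesn1, Xpc and Aen were the most abundant of the 10 genes, each overlapping the next in range, and all 4 lay above Ddb2 and Polk, which overlapped each other. Rrm2b followed, apart from its neighbours, then Perp and Fas, which overlapped, and Tnfrsf10b was the lowest. In the libraries labelled cKO, Aen had the highest mean, 20.3 FPKM, with a range that overlapped that of Btg2. The mean of Xpc was at rank 6 with 3.79 FPKM, after rank 3 in WT, and its range overlapped those of its neighbours in both groups, while Tnfrsf10b (1.30 FPKM) and Fas (0.984 FPKM) were last with overlapping ranges. FPKM are per length of gene, but how the lengths were set is not given in the sources used here, so the order between genes depends on a choice that was not checked.

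**Figure D4:**
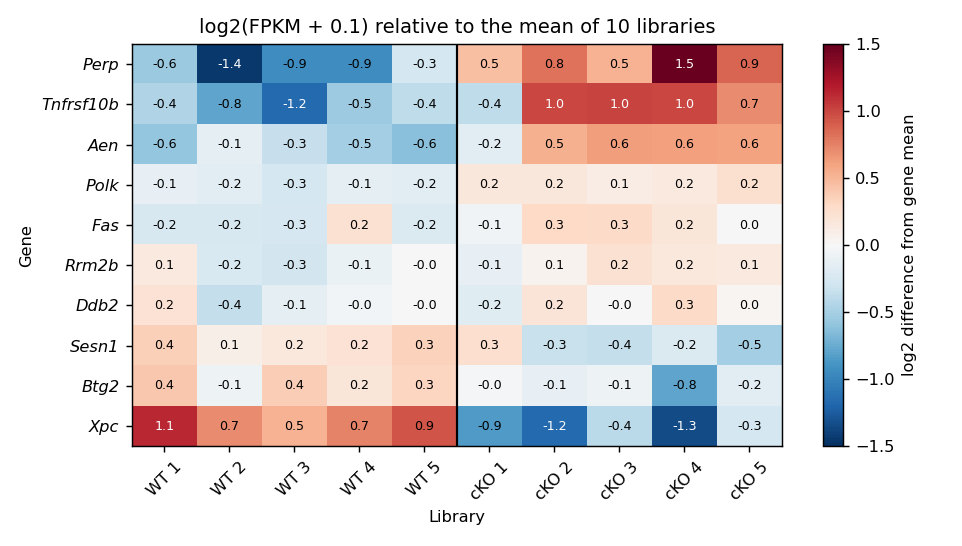
For each gene (rows) and library (columns), the log2(FPKM + 0.1) minus the mean over the 10 libraries, from blue (lower) to red (higher), with the genes ordered by fold change. Perp, Tnfrsf10b and Aen are red in libraries cKO 2 to 5, Xpc is blue in all 5 libraries labelled cKO, and cKO 1 has WT-like values for Tnfrsf10b, Aen and Sesn1.

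Library cKO 1 took no single side. For Tnfrsf10b, Aen, Sesn1 and Btg2 it lay at or within the WT range, where cKO 2 to 5 lay outside it. For Btg2, though, its 13.59 FPKM passed only WT 2 (13.23 FPKM) in that range and lay near cKO 3 (13.17 FPKM). For Fas, Ddb2 and Rrm2b it lay within that range along with others of its label, whereas for Perp, Polk and Xpc it sided with cKO 2 to 5. The mean log2(FPKM + 0.1) of the 10 genes was 1.95 in it, 2.19 to 2.24 in the other libraries labelled cKO and 1.78 to 2.07 in WT. Trp53, which encodes p53 and was looked up after these values were seen, was at 33.6 FPKM in library cKO 1, against 53.84 to 64.62 FPKM in cKO 2 to 5 and 42.74 to 48.87 FPKM across WT. Its log2 fold change was 0.20 with a 95% interval of -0.14 to 0.55 (adjusted p = 0.323, limma). The depth of library cKO 1, 13789970 fragments, was the lowest of the 10. Among neutrophil markers, S100a9 was at 894.75 FPKM in it, against 7.57 to 157.68 FPKM in cKO 2 to 5 and 48.33 to 93.11 FPKM in WT. Ngp was at 317.58 FPKM, against 2.41 to 66.44 and 4.59 to 19.69 FPKM. Elane (183.65 FPKM) and Mpo (277.33 FPKM) were lower in it than in cKO 5 and all WT libraries. The part of depth and of cell types in these values was not tested.

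Beyond the 10 genes, 14 of 30 other p53 targets were called higher and 1 lower, where 4.60% and 16.8% of all genes were, with a median log2 fold change of 0.83 against -0.11 over all genes tested. Eda2r, a receptor of the same family as Fas, rose from 0.136 ± 0.0344 to 3.98 ± 1.04 FPKM (SD, n = 5 each; log2 fold change 4.08, adjusted p = 7.32e-06, limma). Zmat3, an RNA-binding p53 target, rose from 0.792 ± 0.128 to 10.1 ± 2.88 FPKM (SD, n = 5 each; 3.46). Tigar, which lowers glycolytic flux, fell from 3.10 ± 0.327 to 0.620 ± 0.510 FPKM (SD, n = 5 each; -2.53, adjusted p = 0.00209, limma). The list was drawn up with earlier results of these data known, and some of its genes had been seen to rise.

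**Figure D5:**
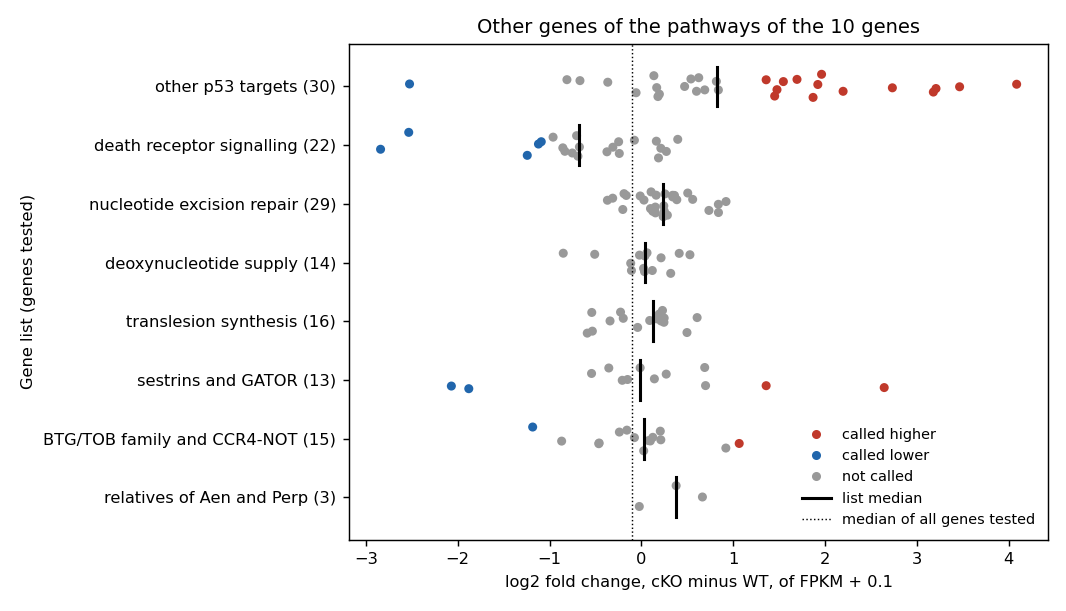
The log2 fold change of FPKM + 0.1, cKO minus WT, of each other gene of 8 pathway lists, coloured by call, with the list median as a bar and the median of all genes tested (-0.11) as a dotted line. Of other p53 targets 14 of 30 were called higher (4.60% of all genes), of death receptor signalling 5 of 22 lower (16.8% of all genes), and nucleotide excision repair, deoxynucleotide supply and translesion synthesis have 0 calls.

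The genes most like each called gene over the 10 libraries were found by the root-mean-square difference of centred log2(FPKM + 0.1) among 12352 genes. Xpc was matched most closely, by Lmo4 (0.0719), Cmtm7 (0.0810) and Epb41l2 (0.105), and Lmo4, a LIM-domain transcription cofactor, fell from 19.4 ± 3.66 to 6.43 ± 2.20 FPKM (SD, n = 5 each). Perp was nearest to Hopx (0.187), Glipr2 (0.214) and Dbndd1 (0.239). Hopx, a homeodomain protein without DNA binding of its own, rose from 7.42 ± 1.96 to 26.6 ± 6.43 FPKM (SD, n = 5 each). Tnfrsf10b was nearest to Gab2 (0.189), Kif7 (0.204) and Nat9 (0.215), and Gab2, a signalling scaffold, rose from 11.0 ± 1.46 to 35.1 ± 12.1 FPKM (SD, n = 5 each).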

How the data were processed

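Lin- bone marrow cells of Dhx9f/f (WT) and Dhx9f/f;MX1 (cKO) mice were measured by RNA-seq, in 5 libraries of each. The paper defines replicates in general as individual mice but does not say so for these libraries, so p-values rest on the spread between libraries. The submitters' processing notes name cutadapt 1.9.1, HISAT2 2.0.1, HTSeq 0.6.1 and the GRCm39 build. The deposited values are the authors' FPKM, given to 2 decimals for each gene in each library. How gene lengths were set is not given in the sources used here, and a count test such as the study's DESeq2 was not run. Symbols and coordinates were looked up in GENCODE M39 (GRCm39).

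limma 3.58.1 in R 4.3.3, with a trend, was fitted to log2(FPKM + 0.1) of the 18742 genes averaging 0.1 FPKM or more, and p-values (two-sided) were adjusted over all of them by the Benjamini-Hochberg method. On this scale the fold changes of low genes are understated. Exact permutation tests were run in Python 3.11.15. Depth was read from low values, as the depth at which the largest share were whole fragments within 0.2. That share was 95.9% to 96.3%. A depth fixed beforehand would give 40% by chance, and the chance level for the best of many depths was not worked out. Fragment numbers of single genes are approximate, and 3 fragments of a gene of 1000 bases equal 0.159 to 0.218 FPKM. Tested on simulated data for this comparison, a set of 200 genes given a log2 change of 2 was recovered at 89%, among 18172 genes in the fit.

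Named were the 10 genes, Dhx9, up to 2 called rises and 2 called falls of each list averaging 1 FPKM or more, listed partners, and the 3 nearest genes of each called gene. The genes and lists were chosen with earlier results of these data known. Alternatives covered the pseudocount, filter, scaling, trend, replicate block, Xist, fold change limit and each library left out.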

Additional observations from a re-analysis of the deposited data

Results flagged for a closer look

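Dixon's test singled out a library in 5 of 74 sets, each the 5 libraries of 1 label for 1 gene, and about 3.7 would be singled out by chance. Aen was at 13.05 FPKM in library cKO 1 against 21.22 to 22.68 in the others of its label. Btg2 was at 7.96 FPKM in library cKO 4 against 12.37 to 13.59. Fas reached 1.04 FPKM in WT 4, where the remaining WT libraries held 0.72 to 0.74, and the log2 fold change of Fas without WT 4 was 0.38 (adjusted p = 0.144, limma). Rad23b, a partner of Xpc, was lowest in WT 1, at 43.44 FPKM, with 51.68 to 54.56 FPKM in the rest of WT. Tmem47, the relative of Perp, was at 0.04 FPKM in library cKO 1 and listed at 0 in the other 9 libraries.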

How the results depend on the processing

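The direction of the log2 fold change of each of the 10 genes was the same in all settings run. Perp and Xpc kept their calls in all 22 other settings. Of the 10 genes, 1 was called higher (Perp) with a pseudocount of 1, among genes averaging 1 FPKM or more, where Tnfrsf10b and Fas were not tested, and in the 7 libraries with Xist at or under 1 FPKM. Without the fold change limit, 4 were called higher and 3 lower. Over all genes, 356 were called higher and 1486 lower with a pseudocount of 1, 462 and 1827 among genes averaging 1 FPKM or more, and 3138 and 5300 without the fold change limit. Quantile normalization gave 1581 higher, and the libraries with Xist at or under 1 FPKM gave 536 higher. The median of death receptor signalling was -0.31 with a pseudocount of 1, -0.38 among genes averaging 1 FPKM or more and -0.32 with quantile normalization. With median-ratio scaling the medians of nucleotide excision repair, deoxynucleotide supply and translesion synthesis were 0.34, 0.14 and 0.23. Sites with up to 3 mismatches were held by 3 of the 10 genes, and 0 with other limits. The cause of these moves was not tested.

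With quantile normalization Ddb2 was at 0.43 (adjusted p = 0.0212, limma), past the threshold on adjusted p alone. Without each library in turn, 2 or 3 of the 10 genes were called higher, 3 only without library cKO 1, which adds Aen, and 1 lower. The replicate number as a block gave 857 genes higher and 3107 lower and changed no call among the 10 genes. Deviations from the label mean correlated over genes at -0.010 to 0.117 for libraries of the same number. For libraries of different numbers they correlated at -0.097 to 0.067. Numbers 1 (0.117) and 5 (0.093) lay above all pairs of different numbers, and the rest of the same-number pairs were at 0.026 or less. The numbers were not taken as a pairing. Depth limits Fas, Tnfrsf10b and Perp most, with about 20 to 162 fragments a library.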
